A study of Rattus norvegicus with 12 samples.

Results

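The antioxidant, glutathione and thioredoxin genes of the rat heart were taken from a table of gene counts by their symbols. The rule collected the glutathione peroxidases (Gpx), peroxiredoxins (Prdx), superoxide dismutases (Sod), thioredoxin reductases (Txnrd), cytosolic and membrane glutathione S-transferases (Gst, Mgst) and heme oxygenases (Hmox). It added Txn1, Txn2, Txnip, Gclc, Gclm, Gsr, Gss, Nqo1, Nfe2l2 and Keap1. It reads symbols alone and found 55 of the 30560 genes in the table. Of these, 49 had at least 10 counts over all rats and were tested, and 6 did not (Gsta2, Gsta3, Gsta5, Gstt4, Gpx5 and Gpx6), of which 4 had no count. Srxn1 and Prdx4, which the rule also covers, were not analysed here.

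Male Wistar rats were operated at 7 weeks of age, either by ligation of the left anterior descending coronary artery, which causes a myocardial infarction (MI), or by opening the chest without ligation (Sham). From 24 h after surgery and for 8 weeks, MI rats received by gavage either vehicle (carboxymethylcellulose) or urolithin A (UA), a gut microbial metabolite of dietary ellagitannins, in this vehicle, and Sham rats received vehicle. The results and methods of the study differ on the dose of UA and on when treatment began. The start given here is that of the methods, and no dose is given. RNA was extracted from formalin-fixed, paraffin-embedded blocks from the middle region of the heart, depleted of ribosomal RNA and sequenced with 1 library per rat, 4 each of Sham, MI and MI + UA.

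Superoxide dismutases convert superoxide to hydrogen peroxide, which peroxiredoxins and glutathione peroxidases then reduce to water, the former with electrons from thioredoxin and the latter with electrons from glutathione. Thioredoxin reductases and glutathione reductase recharge these carriers with NADPH, and glutathione S-transferases attach glutathione to lipid peroxidation products and foreign compounds. Many of the genes are targets of NRF2, a transcription factor that KEAP1 holds back until oxidants or electrophiles release it, and which binds antioxidant response elements in their promoters. In cardiomyocytes, where mitochondria are dense, the mitochondrial enzymes Sod2, Prdx3, Txn2 and Txnrd2 handle much of the oxidant load.

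Before the values, the response element is shown where its core was found in members the results turn on. The core TGACNNNGC was searched on both strands of a 300 base window per gene, from 250 bases before to 50 after the transcription start, in RefSeq promoters of build GRCr8. It was present in 4038 of 33469 promoters (12.1%) and in 10 of the 38 tested members with a promoter in the table (26.3%). The core lay in the window of 1 of 4 members higher in MI than in Sham (Gsta1) and 1 of 9 lower in MI (Sod2). The sequences of Gsta1 and Sod2 are given with those of 3 members known as NRF2 targets, Gclm, Gstp1 and Prdx1, 5′ to 3′ on the strand of the gene, with the core in capitals and read on the opposite strand where it begins with GC. Nqo1, Gclc and Txnrd1, also known targets, had no match in their windows.
Gsta1, 30 bases downstream of the start (chr9:31216484-31216512, minus strand): aactcaggcaTGACTTTGCatttttcttc
Sod2, 35 bases upstream (chr1:50050185-50050213, minus strand): ggcgctgccgGCAGGGTCAgcgcctagct
Gclm, 172 bases upstream (chr2:213031953-213031981, plus strand): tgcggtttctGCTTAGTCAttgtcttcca
Gstp1, 61 bases upstream (chr1:210769748-210769776, minus strand): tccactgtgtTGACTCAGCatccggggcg
Prdx1, 135 bases upstream (chr5:135383761-135383789, plus strand): cagggaaagcGCTGAGTCAtaccccgccg
These matches describe letters and show no binding. No match in a window says only that the core is not in those 300 bases.

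Reads on genes numbered from 6228706 to 19031695 per library, of which the 13 mitochondrially encoded genes took 50.2% to 58.6%, and the members together had between 14118 and 37704 reads per rat. The share of reads assigned to genes was 46.9% to 48.3% in Sham, 43.3% to 44.8% in MI and 42.9% to 47.2% in MI + UA, so that MI and Sham did not overlap. Cell type markers also differed. The 9 cardiomyocyte markers used summed to between 22221 and 26024 CPM, reads scaled to a common library size, in Sham, 15952 and 17018 in MI and 16271 and 19578 in MI + UA, and 8 of them passed as lower in MI. Among 10 fibroblast markers 7 were higher in MI (sums of 1612 to 2020 CPM in Sham, 2720 to 4260 in MI and 2784 to 4197 in MI + UA), as were 9 of 10 macrophage markers (132 to 165, 265 to 423 and 224 to 454 CPM). In bulk tissue, fewer cells of a type and less RNA per cell cannot be told apart, and the part of cell composition in the differences below was not tested. The library of rat 66 is labelled MI + UA, while a table of the study lists that rat with the vehicle-treated MI rats. It was counted as MI + UA, and values without it are given where a result rests on it.

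The first question was what infarction did to these genes. In MI versus Sham, 16 of the 49 tested members changed, most of them downward. Prdx3, Prdx2, Prdx6, Sod1, Sod2, Txn2, Gstm2, Gstm6l, Gstk1, Gsta4 and Mgst1 fell, with log2 fold changes from -0.28 to -0.88, and Gsta1, Gsta6, Gpx7, Gpx3 and Sod3 rose, with log2 fold changes from 0.45 to 1.10. These 16 had adjusted p-values under 0.05 in edgeR's quasi-likelihood test, adjusted over all 18182 genes tested. The 11 lower members are 22.4% of the 49, where 5.53% of all genes were lower, and the 5 higher members are 10.2%, where 5.82% of all genes were higher. The 4 MI rats lay below the 4 Sham rats without overlap at 15 members (30.6%, against 7.56% of all genes) and above them at 6 (12.2%, against 8.12%). The median log2 fold change was -0.25 over the members and 0.026 over all genes tested.

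**Figure D1:**
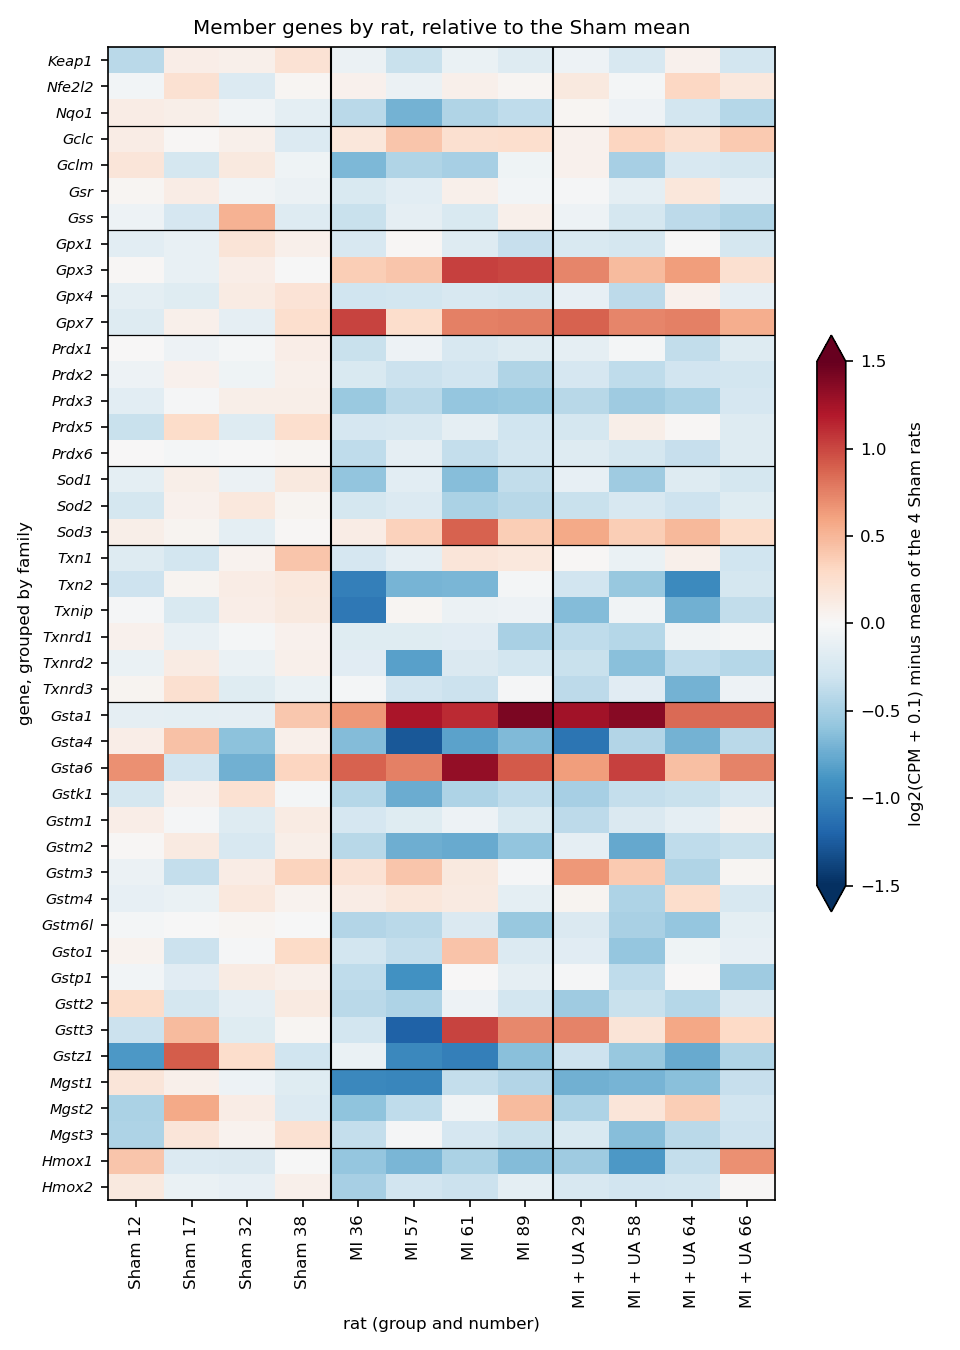
Heat map of 44 member genes with an average log2 CPM of at least 1 (rows, grouped by family) in the 12 rats (columns, by group), coloured by log2(CPM + 0.1) minus the mean of the 4 Sham rats. The Gsta1, Gpx3 and Gpx7 rows are red in every MI rat, the Prdx3, Gstm2 and Mgst1 rows are blue in every MI rat, and Hmox1 in MI + UA rat 66 (45.9 CPM) stands apart from the other MI + UA rats.

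Leaving out each rat in turn, 7 of the 16 calls were kept in all 8 fits: Prdx3, Gsta1, Gpx3, Gstm2, Gstm6l, Prdx2 and Mgst1. The other 9 were lost in at least 1 fit. The count of lower members was 7 without Sham 17, 6 without Sham 38, 7 without MI 36 and 5 without MI 61. The count of higher members was 3 without Sham 17, 2 without Sham 32 and 2 without MI 61.

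The peroxiredoxins, which reduce hydrogen peroxide at a reactive cysteine, all had negative log2 fold changes in MI versus Sham, and 3 of the 5 tested passed the threshold (60%, where 5.53% of all genes were lower). Prdx3 (ENSRNOG00000010958), the mitochondrial member, had 85.9, 94.4, 101 and 101 CPM in the Sham rats, 64.8, 72.3, 63.7 and 64.9 in the MI rats and 71.4, 66.1, 68.6 and 80.0 in the MI + UA rats. Every MI and MI + UA rat was below every Sham rat. MI differed from Sham by a log2 fold change of -0.53 (SE 0.086, edgeR adjusted p = 0.000378), a level in MI 0.693 times that in Sham. Prdx2, an abundant cytosolic member, averaged 100.1 ± 5.41 CPM over the Sham rats and 80.2 ± 5.28 over the MI rats (SD, n = 4 each), with a log2 fold change of -0.32 (SE 0.078, edgeR adjusted p = 0.00962). Prdx6, which also reduces oxidized phospholipids with glutathione as its partner, had 137 to 143 CPM in Sham and 107.5 to 127 in MI. Its log2 fold change was -0.28 (SE 0.077, edgeR adjusted p = 0.0193), and the adjusted p rose to between 0.0568 and 0.0667 without Sham 38, MI 36 or MI 61. Cytosolic Prdx1 and Prdx5, which is found in mitochondria, peroxisomes and cytosol, had log2 fold changes of -0.21 and -0.26 that did not pass (edgeR adjusted p = 0.131 and 0.246).

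All 3 superoxide dismutases passed the threshold, in different directions. Of these, 2 were lower (66.7%, where 5.53% of all genes were lower) and 1 was higher (33.3%, where 5.82% were higher). Sod2, the manganese enzyme of the mitochondrial matrix, had 210.0, 264, 281 and 259.6 CPM in Sham and 209, 218, 181 and 188 in MI, and the groups overlapped through Sham 12. Its log2 fold change was -0.35 (SE 0.091, edgeR adjusted p = 0.0154), with adjusted p from 0.0539 to 0.0701 without Sham 32, MI 61 or MI 89. Sod1, the copper and zinc enzyme of the cytosol, had 20.6, 24.2, 21.5 and 25.3 CPM in Sham and 15.1, 20.4, 14.6 and 17.6 in MI. The groups did not overlap, though Sham 12 and MI 57 were close, and the log2 fold change was -0.45 (SE 0.12, edgeR adjusted p = 0.0212). Without Sham 17, Sham 38, MI 36 or MI 61 the adjusted p was between 0.0608 and 0.0819. Sod3, the extracellular enzyme, had 126, 123, 107 and 121 CPM in Sham, 129, 151, 219.7 and 153 in MI and 176, 153, 166 and 144 in MI + UA. All infarcted rats were above all Sham rats, MI 36 by little, and MI 61 was far above the other MI rats. The log2 fold change was 0.45 (SE 0.12, edgeR adjusted p = 0.0191), and without MI 61 it was 0.27 (adjusted p = 0.0908). Without Sham 32 the call was also lost (adjusted p = 0.0750).

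Among the glutathione peroxidases, the secreted Gpx3 and the endoplasmic reticulum enzyme Gpx7 rose, and the intracellular Gpx1 and Gpx4 did not pass the test. Gpx3, made for plasma and extracellular fluid, had 18.1, 16.6, 19.2 and 17.9 CPM in Sham, 23.2, 23.8, 36.6 and 35.9 in MI and 29.7, 24.9, 27.7 and 21.2 in MI + UA. MI 61 and MI 89 were the highest, and no infarcted rat was as low as any Sham rat. In MI versus Sham the rise was 0.74 on the log2 scale (SE 0.15, edgeR adjusted p = 0.00235), or 1.67-fold. Gpx7, which passes oxidizing equivalents to protein folding, had 2.26 to 3.10 CPM in Sham and 3.14 to 5.34 in MI, a log2 fold change of 0.75 (SE 0.22, edgeR adjusted p = 0.0278). That call was kept in 2 of the 8 fits that left out 1 rat, those without Sham 38 and MI 57, and without Sham 12, Sham 17, Sham 32, MI 36, MI 61 or MI 89 the adjusted p was 0.0509 to 0.0955. Gpx8, its relative in the same compartment, had a log2 fold change of 0.37 (edgeR adjusted p = 0.489). Gpx1, the main cytosolic and mitochondrial enzyme, had -0.20 (adjusted p = 0.228). Gpx4, which reduces lipid hydroperoxides in membranes and restrains ferroptosis, had 27.0 to 35.4 CPM in Sham and 24.9 to 25.8 in MI, without overlap and with a log2 fold change of -0.28 (edgeR adjusted p = 0.111).

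**Figure D2:**
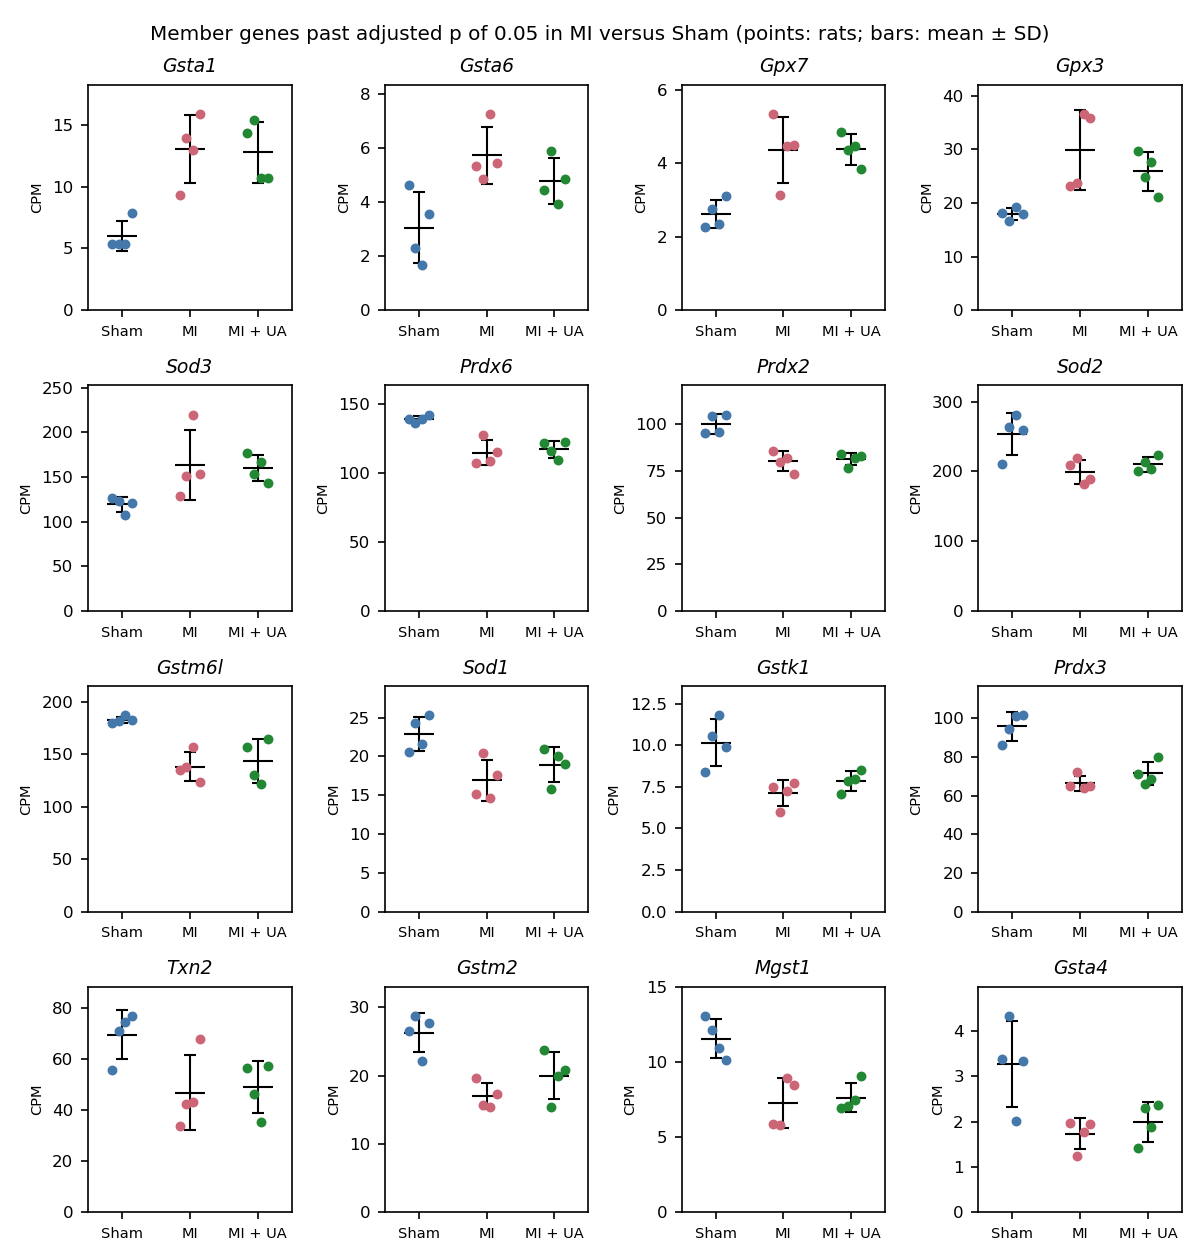
Normalised counts (CPM, linear axes from 0) of the 16 members past an adjusted p of 0.05 in MI versus Sham, ordered by log2 fold change. Points are rats and bars are the mean ± SD of 4 rats. For Gsta1 all MI rats (9.36 to 15.9 CPM) lie above all Sham rats (5.34 to 7.87), for Prdx3 they lie below, and for Txn2 and Sod2 the groups overlap.

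Of the glutathione S-transferases, the alpha class had calls in both directions, and the calls of the mu and kappa classes were all lower. The 17 tested had 2 higher (11.8%, against 5.82% of all genes) and 4 lower members (23.5%, against 5.53%) and a median log2 fold change of -0.31. Gsta1 (ENSRNOG00000013484), an alpha class enzyme that conjugates electrophiles and reduces lipid hydroperoxides, had 5.39, 5.34, 5.39 and 7.87 CPM in Sham, 9.36, 13.96, 13.0 and 15.9 in MI and 14.3, 15.4, 10.7 and 10.7 in MI + UA. The lowest infarcted rat was above the highest Sham rat. The log2 fold change in MI versus Sham, 1.10 (SE 0.19, edgeR adjusted p = 0.000656, 2.14-fold), was the highest of the tested members. Gsta6 rose with it, from 3.05 ± 1.32 CPM (SD, n = 4) to 5.73 ± 1.06 (SD, n = 4), a log2 fold change of 0.87 (SE 0.25, edgeR adjusted p = 0.0259), and without Sham 17, Sham 32 or MI 61 the call was lost (adjusted p from 0.0846 to 0.0952) while the value stayed at 0.70 or above. Gsta4, the alpha enzyme known for 4-hydroxynonenal, an aldehyde from peroxidized lipids, moved the other way, with 3.39, 4.33, 2.02 and 3.34 CPM in Sham and 1.97, 1.25, 1.76 and 1.96 in MI. The groups did not overlap, Sham 32 lying just above MI 36. Its log2 fold change was -0.88 (SE 0.28, edgeR adjusted p = 0.0453), a call that was kept without Sham 32 and lost without Sham 12, Sham 17, Sham 38, MI 36, MI 57, MI 61 or MI 89 (adjusted p from 0.0615 to 0.150) and without a filter on low counts (adjusted p = 0.0530). In the RefSeq gene order Gsta3, Gsta1 and Gsta6 are consecutive on 1 chromosome, while Gsta4, Gsta5 and Gsta2 are consecutive on another, and Gsta2, Gsta3 and Gsta5 had at most 1 count in all rats together.

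In the mu class, Gstm2 (ENSRNOG00000018937), which is prominent in muscle, had 26.6, 28.7, 22.2 and 27.8 CPM in Sham, 19.7, 15.7, 15.5 and 17.4 in MI and 23.8, 15.4, 20.0 and 20.8 in MI + UA. All MI rats were below all Sham rats, and MI + UA 29 was inside the Sham range. MI versus Sham gave a log2 fold change of -0.62 (SE 0.13, edgeR adjusted p = 0.00283). Gstm6l averaged 183 ± 3.09 CPM in Sham and 138 ± 13.8 in MI (SD, n = 4 each), a log2 fold change of -0.40 (SE 0.096, edgeR adjusted p = 0.00796). Gstm1, the consecutive neighbour of Gstm2, had 21.2 to 26.3 CPM in Sham and 20.3 to 22.9 in MI, and its log2 fold change of -0.20 did not pass (edgeR adjusted p = 0.305). Genes of these clusters are similar in sequence, and how reads were divided among copies is uncertain. Outside the clusters, Gstk1, the kappa class enzyme of mitochondria and peroxisomes, had 8.41, 10.5, 11.8 and 9.90 CPM in Sham and 7.46, 5.96, 7.27 and 7.74 in MI. The groups did not overlap, and the log2 fold change of -0.49 (SE 0.15, edgeR adjusted p = 0.0343) no longer passed, with adjusted p from 0.0530 to 0.112, without Sham 17, Sham 32, Sham 38, MI 36, MI 57 or MI 61. Gstp1, the pi class enzyme, had a log2 fold change of -0.31 (edgeR adjusted p = 0.234), Gstt1 -0.42 (adjusted p = 0.578, and -0.12 without Sham 32) and Gsto1 -0.09 (adjusted p = 0.832). Gstz1, which acts in tyrosine breakdown, had -0.73 (edgeR adjusted p = 0.105), with Sham rats spread from 4.89 to 16.9 CPM, and rested on single rats. It was -0.35 without Sham 17 (adjusted p = 0.475), and it passed without Sham 12 or MI 36 (adjusted p = 0.0205 and 0.0376) and without a filter on low counts (0.0381). The 7 tested members that fell outside the naming rule, among them low-count copies such as Gstm3l, did not pass.

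The membrane-bound transferase Mgst1, which sits in the endoplasmic reticulum and outer mitochondrial membrane and protects lipids from peroxidation, had 13.0, 12.1, 10.9 and 10.1 CPM in Sham, 5.85, 5.80, 8.93 and 8.47 in MI and 6.97, 7.06, 7.44 and 9.06 in MI + UA. No infarcted rat reached the lowest Sham rat. The log2 fold change in MI versus Sham was -0.66 (SE 0.17, edgeR adjusted p = 0.0119). Mgst2 and Mgst3, known for leukotriene synthesis and peroxidase activity, had log2 fold changes of -0.11 and -0.27 (edgeR adjusted p = 0.886 and 0.211). The Mgst3 value passed only without Sham 12 (adjusted p = 0.0218), in which it was 44.5 CPM against 63.8 to 71.8 in the other Sham rats.

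In the thioredoxin system, which carries electrons from NADPH to peroxiredoxins, all 6 tested members had negative log2 fold changes in MI versus Sham and 1 passed (16.7%, where 5.53% of all genes were lower). That was Txn2, the mitochondrial thioredoxin, with 55.7, 71.0, 74.6 and 76.7 CPM in Sham, 33.7, 42.3, 43.0 and 67.8 in MI and 56.3, 46.4, 35.5 and 57.2 in MI + UA. MI 89 lay inside the Sham range and the other MI rats below it. The log2 fold change was -0.57 (SE 0.17, edgeR adjusted p = 0.0368), and the call was lost without Sham 17, Sham 32, Sham 38, MI 36, MI 57 or MI 61 (adjusted p from 0.0781 to 0.117). The mitochondrial reductase Txnrd2 and the cytosolic reductase Txnrd1 were both lower in every MI rat than in any Sham rat, with log2 fold changes of -0.33 and -0.25 that did not pass (edgeR adjusted p = 0.141 and 0.152). Txnrd3, a reductase best known from testis, had -0.16 (edgeR adjusted p = 0.689), and cytosolic Txn1 had -0.03 (adjusted p = 0.940). Txnip, which binds thioredoxin and limits glucose uptake, had 567 to 729.5 CPM in Sham and 314, 675, 622 and 629 in MI, a log2 fold change of -0.25 (edgeR adjusted p = 0.428) that was -0.05 without MI 36.

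By the place where the proteins are known to act, the mitochondrial Prdx3, Sod2 and Txn2 fell, as did Gstk1 of mitochondria and peroxisomes. The mitochondrial Txnrd2 did not pass. With Prdx5 these make 6 tested members, of which 4 were lower, where 5.53% of all genes were lower. Prdx5 and Gpx1, which act in mitochondria and elsewhere, did not pass either. The 2 secreted members, Gpx3 and Sod3, both rose, where 5.82% of all genes were higher. The calls of Prdx3 and Gpx3 were kept in all 8 fits that left out 1 rat. Those of Sod3 were kept in 6, of Sod2 in 5, and of Txn2 and Gstk1 in 2 each. The summed cardiomyocyte markers given above were lower in each MI rat than in any Sham rat. So were the Prdx3 and Gstk1 values, while the Sod2 and Txn2 values of the groups overlapped. The summed fibroblast markers were higher in each MI rat than in any Sham rat, as were the Gpx3 and Sod3 values. The part of the markers in these differences was not tested.

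Nfe2l2, Keap1, Nqo1 and the genes of glutathione synthesis and recycling had no member past the threshold in MI versus Sham. Nfe2l2, which encodes NRF2, had 36.004, 43.4, 32.2 and 37.8 CPM in Sham, 38.7, 35.0, 39.0 and 37.9 in MI and 41.3, 36.5, 46.0 and 41.4 in MI + UA. The MI rats lay inside the Sham range, with a log2 fold change of 0.01 (SE 0.099, edgeR adjusted p = 0.962). Keap1, its inhibitor, had -0.18 (SE 0.15, edgeR adjusted p = 0.504). Nqo1, a quinone reductase and common readout of NRF2 activity, had 5.90, 5.77, 5.22 and 4.89 CPM in Sham and 4.09, 3.29, 3.94 and 4.16 in MI. All MI rats were below all Sham rats, and the log2 fold change of -0.47 (SE 0.18) had an edgeR adjusted p of 0.111. The subunits of glutamate-cysteine ligase, the first enzyme of glutathione synthesis, had estimates of opposite sign. The catalytic subunit Gclc had 16.3 to 20.3 CPM in Sham and 21.1 to 25.2 in MI, without overlap, and a log2 fold change of 0.27 (SE 0.11, edgeR adjusted p = 0.133). The modifier subunit Gclm had 8.95 to 12.2 in Sham and 6.73 to 10.3 in MI, a log2 fold change of -0.41 (SE 0.17, edgeR adjusted p = 0.124), which passed without MI 89 (adjusted p = 0.0472). Glutathione synthetase (Gss) and glutathione reductase (Gsr) had -0.17 and -0.08 (edgeR adjusted p = 0.691 and 0.745).

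**Figure D3:**
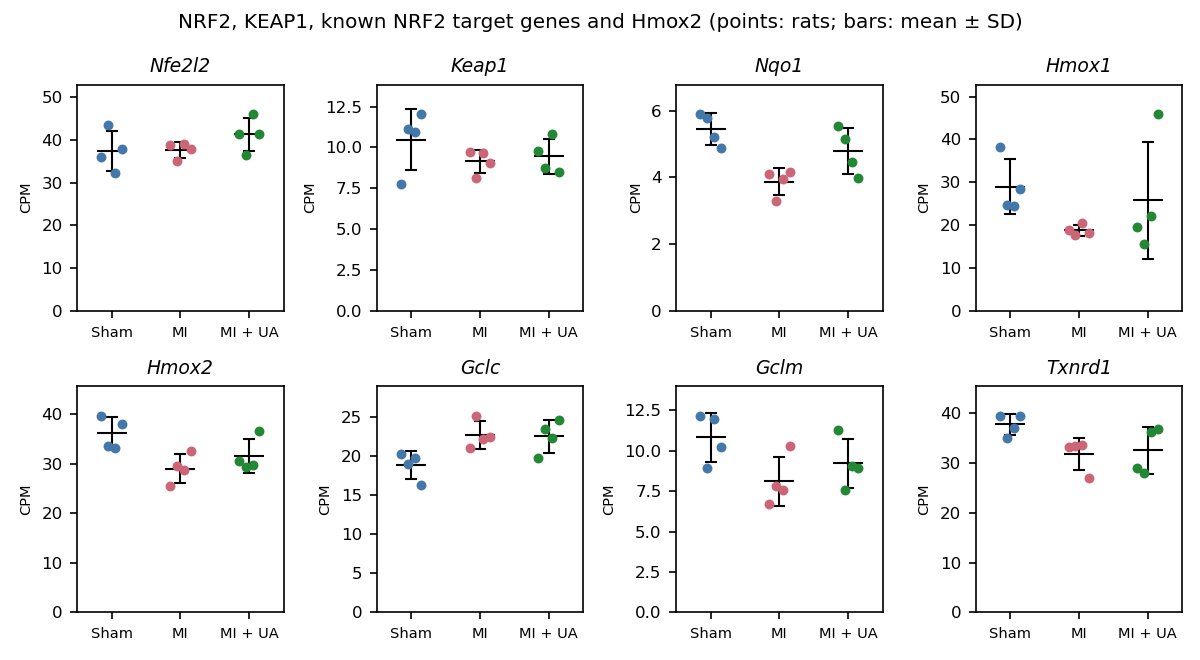
Normalised counts (CPM, linear axes from 0) of Nfe2l2, Keap1, 4 known NRF2 target genes besides Hmox1, and the heme oxygenases in each rat, with bars at the mean ± SD of 4 rats. The MI rats lie below the Sham rats for Nqo1, Hmox1, Hmox2 and Txnrd1 and above them for Gclc, and 1 MI + UA rat has the highest Hmox1 value (45.9 CPM).

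The heme oxygenases, which break heme down to biliverdin, iron and carbon monoxide, did not pass, although the MI rats lay below the Sham rats at both. The inducible Hmox1 (ENSRNOG00000014117) had 38.1, 24.7, 24.6 and 28.4 CPM in Sham and 18.9, 17.7, 20.4 and 18.1 in MI. The groups did not overlap, and the log2 fold change was -0.63 (SE 0.24, edgeR adjusted p = 0.0977). The adjusted p was 0.00307 and 0.0194 in the fits without a filter on low counts and with only the 2 groups compared. The constitutive Hmox2 had 33.2 to 39.8 CPM in Sham and 25.4 to 32.5 in MI, a log2 fold change of -0.32 (SE 0.10, edgeR adjusted p = 0.0529). It passed in 5 of 6 other settings of the test (adjusted p from 0.0387 to 0.0469) and without MI 89 (0.0392).

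The second question was whether UA changed these genes after infarction. In MI + UA versus MI, 0 of the 49 members had an adjusted p under 0.05 in edgeR's test, as was so for all genes tested (0%), and the groups did not separate at any member. Over all genes, 1.18% were higher and 1.16% lower in MI + UA without overlap. An unadjusted p under 0.05 was found for 1 member, Hmox1 (2.04%, against 3.79% of all genes), and DESeq2 called 0 members. The log2 fold changes ran from -0.27 for Gsta6 (-0.14 without MI 61) to 0.49 for Hmox1, 30 of 49 were positive, and the median was 0.036 over the members and 0.005 over all genes.

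**Figure D4:**
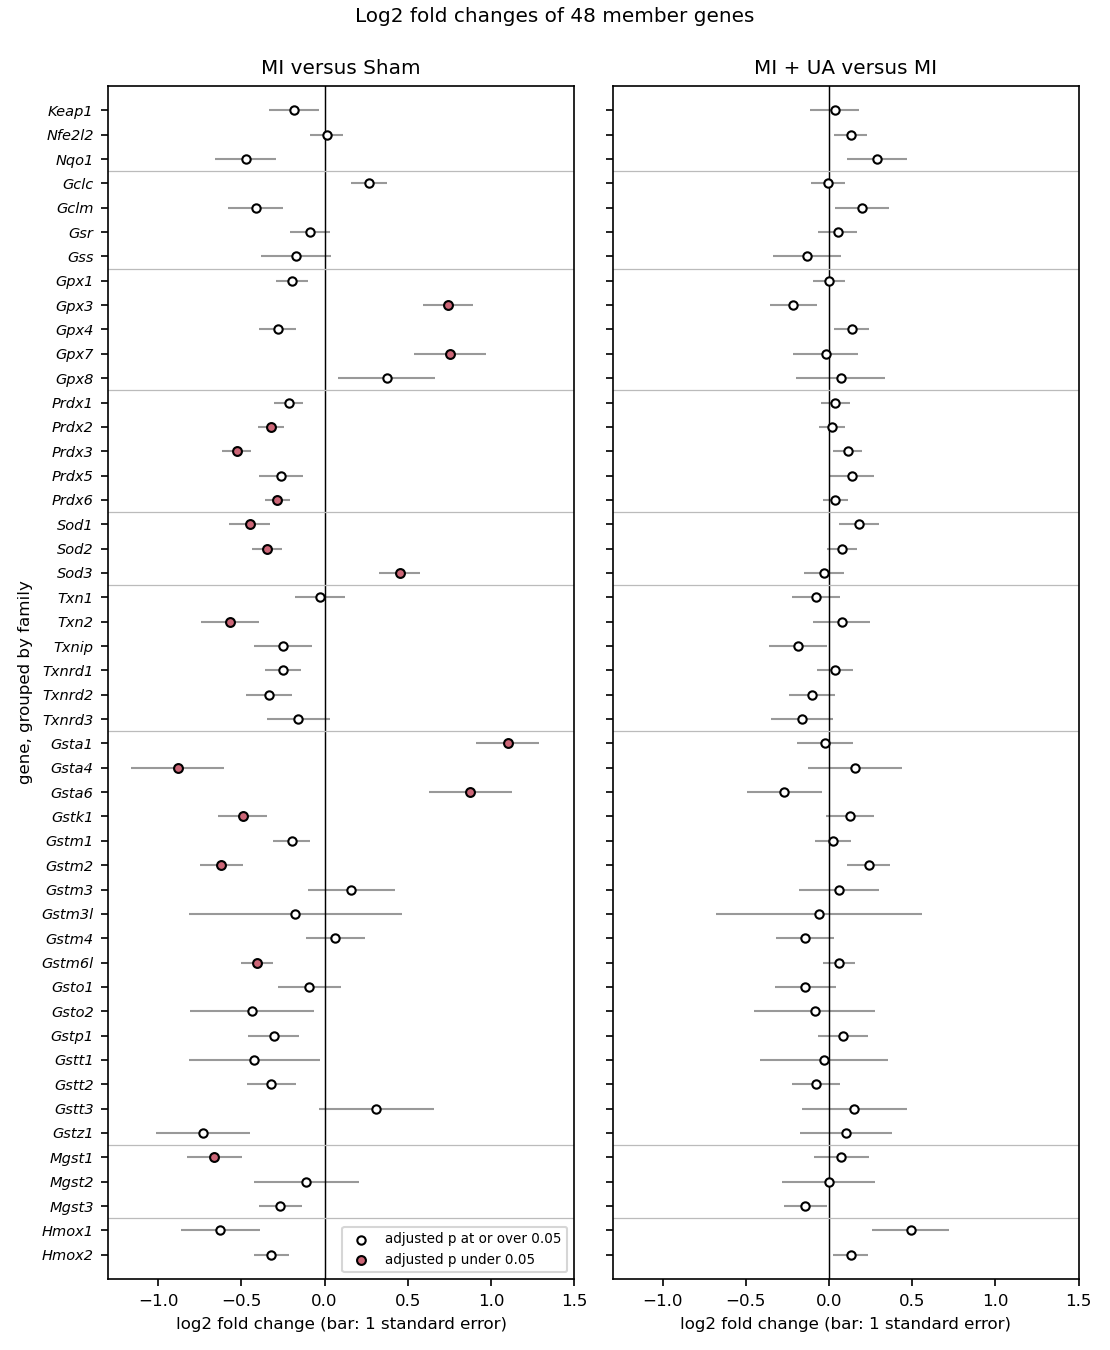
Log2 fold changes (points) with 1 standard error (bars) of 48 tested members, grouped by family, in MI versus Sham (left) and MI + UA versus MI (right). Gpx2 is left out for its few counts. Filled points have an edgeR adjusted p under 0.05, which 16 members have on the left and 0 on the right, where all values lie between -0.27 and 0.49. The same MI rats enter both panels.

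Hmox1 had 19.7, 15.7, 22.2 and 45.9 CPM in the MI + UA rats, against 17.7 to 20.4 in MI. Rat 66 alone, the animal with conflicting group records, was far above the MI range. Against MI the log2 fold change was 0.49 (SE 0.23, unadjusted p = 0.0459, edgeR adjusted p = 0.9997) and 0.03 without rat 66. Against Sham it was -0.14 (edgeR adjusted p = 0.796), and -0.60 (adjusted p = 0.0111) without rat 66. In that library the summed cardiomyocyte markers, 19578 CPM, were the highest and the summed macrophage markers, 224 CPM, the lowest of the MI + UA rats, and their part in the Hmox1 value was not tested.

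For the genes that fell with MI, both comparisons are given side by side, since the same 4 MI rats enter both comparisons. Gstm2 had -0.62 in MI versus Sham and 0.24 in MI + UA versus MI (SE 0.13, unadjusted p = 0.0762). Sod1 had -0.45 and 0.18 (unadjusted p = 0.156), and Prdx3 had -0.53 and 0.11 (unadjusted p = 0.205). Txn2 had -0.57 and 0.07, Mgst1 -0.66 and 0.07, and Prdx2 -0.32 and 0.02. Gsta4 had -0.88 and 0.15, Gstk1 -0.49 and 0.13, Gstm6l -0.40 and 0.06, Sod2 -0.35 and 0.08, and Prdx6 -0.28 and 0.04. For the genes that rose, Gpx3 had 0.74 and -0.21 (unadjusted p = 0.145), Gsta6 0.87 and -0.27, Gsta1 1.10 and -0.02, Sod3 0.45 and -0.03, and Gpx7 0.75 and -0.02. Among the NRF2 axis and its targets, MI + UA versus MI gave 0.13 for Nfe2l2 (unadjusted p = 0.197), 0.03 for Keap1, 0.29 for Nqo1 (unadjusted p = 0.122), 0.20 for Gclm (unadjusted p = 0.231), -0.01 for Gclc and 0.04 for Txnrd1. Without rat 66 the MI + UA versus MI value was 0.05 for Prdx3, 0.03 for Gsta4, 0.08 for Gstk1, 0.05 for Sod2, 0.02 for Prdx6 and -0.12 for Gpx3. That value changed sign for Txn2 (-0.01), Mgst1 (-0.03), Gstm6l (-0.01), Gsta1 (0.06), Sod3 (0.02) and Gpx7 (0.05). Other rats moved these values too. Gpx3 was -0.11 without MI 61, -0.11 without MI 89 and -0.33 without MI 36, and Gclm was 0.07 without MI + UA 29, 0.11 without MI 36 and 0.35 without MI 89. Without MI + UA 29, Gstm2 was 0.14 and Nqo1 0.19, without MI + UA 64 Nfe2l2 was 0.08, and without MI 61 Sod1 was 0.12. None of the MI + UA versus MI differences had an adjusted p under 0.05 in edgeR's test.

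MI + UA was also compared with Sham, which asks where treated infarcted hearts stood against hearts without infarction. Here 4 members were higher (8.16%, against 5.16% of all genes) and 6 lower (12.2%, against 4.27%), and DESeq2 called 10 lower. The higher members were Gsta1 (log2 fold change 1.08, edgeR adjusted p = 0.00105), Gpx7 (0.73), Gpx3 (0.53) and Sod3 (0.42). The lower ones were Mgst1 (-0.59), Prdx3 (-0.42, edgeR adjusted p = 0.00321), Mgst3 (-0.41), Gstm6l (-0.35), Prdx2 (-0.30) and Prdx6 (-0.25). Mgst3, which had not passed in MI versus Sham, had 44.5 to 71.8 CPM in Sham and 39.4 to 52.4 in MI + UA, overlapping, with an adjusted p of 0.0486. Txnrd2, at 9.12 to 11.2 CPM in MI + UA and 13.1 to 15.3 in Sham without overlap, had a log2 fold change of -0.44 (edgeR adjusted p = 0.0519) and passed in 5 of 6 other settings (adjusted p from 0.0323 to 0.0463). The calls of Gsta1 and Prdx3 were kept in all 8 fits that left out 1 rat. The count of higher members was 1 without Sham 17, Sham 32, MI + UA 29 or MI + UA 64 and 2 without Sham 38. The count of lower members was 1 without Sham 17 or MI + UA 58 and 2 without Sham 38 or MI + UA 64. Without rat 66 it was 7, with 4 higher members, as Hmox1 and Txn2 then passed (Txn2 adjusted p = 0.0482) and Mgst3 did not (0.0539).

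Genes next to this system but outside the rule were taken from 7 lists, to be read against the 5.82% of all genes that were higher and the 5.53% that were lower in MI. Of 12 glutaredoxins and other thioredoxin-fold genes, 1 was higher (8.33%, Txndc5, 0.34) and 2 lower (16.7%), Glrx5, needed for iron-sulfur clusters in mitochondria (log2 fold change -0.55), and Txnl1 (-0.37). Of 16 catalase, quinone and peroxide genes, 2 were higher (12.5%), Pon3 (1.29) and Sesn3 (0.46), and 3 lower (18.8%), catalase (Cat, -0.39), Sesn1 (-0.42) and Nqo2 (-0.43). Each passed edgeR's test over all genes, with adjusted p-values between 0.00255 and 0.0324. Cat, the peroxisomal enzyme that splits hydrogen peroxide, had 255 to 285 CPM in Sham and 185 to 226 in MI, without overlap, and was named after its values were seen.

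NADPH supply, which feeds both glutathione and thioredoxin, had 6 lower (33.3%) and 1 higher (5.56%) of 18 tested genes, with a median log2 fold change of 0.008. Nnt, the mitochondrial transhydrogenase that makes NADPH from NADH, had 710.0, 652, 663 and 694 CPM in Sham and 454, 482, 391 and 449 in MI. The groups were far apart, and the log2 fold change was -0.62 (SE 0.085, edgeR adjusted p = 7.73e-05). Nadk2, the mitochondrial NAD kinase, had -0.66 (edgeR adjusted p = 0.000528), and Mthfd2, a mitochondrial folate enzyme, rose by 2.87 on the log2 scale from 0.144 to 0.505 CPM in Sham to 1.24 to 4.23 in MI (edgeR adjusted p = 0.00301). The Sham values of Mthfd2 rest on few reads, since 1 read was worth 0.119 to 0.168 CPM in those libraries. The summed level of the list was 1802 to 1914 CPM in Sham, 1205 to 1379 in MI and 1336 to 1534 in MI + UA.

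Of 18 genes of cystine and glutathione transport and breakdown, 1 was higher and 1 lower (5.56% each), near the shares of all genes. Slc25a39, which carries glutathione into mitochondria, fell (-0.36, edgeR adjusted p = 0.0119) and the glutamine carrier Slc1a5 rose (0.94, adjusted p = 0.0372). NRF2 partners and other targets had 26 tested entries from 25 gene symbols. Of the 26 entries, 2 were higher (7.69%), Akr1b8 (1.79) and Maff (0.62), and 3 lower (11.5%), among them Sqstm1, which binds KEAP1 (-0.41, edgeR adjusted p = 0.00116), and Nfe2l1, the relative of NRF2 (-0.35, adjusted p = 0.00312). Of 19 genes of selenoproteins and selenium handling, 2 were higher and 2 lower (10.5% each), of which the deiodinase Dio2 (1.99) and the selenium carrier Selenop (0.41) rose, and Pstk (-0.67) and Selenoi (-0.35) fell. Of 19 genes of oxidant-producing enzymes, 3 were higher (15.8%), Nox4 (0.84, edgeR adjusted p = 0.0246), Aox1 (0.80, adjusted p = 0.000764) and Maoa, and 1 lower (5.26%), the phagocyte oxidase subunit Ncf1 (-0.49). Their median log2 fold change was 0.30. Between MI + UA and MI, 0 of the 128 tested entries of the 7 lists passed edgeR's test, DESeq2 called 0 of all genes, and 6 entries had an unadjusted p under 0.05. Akr1b8, an aldo-keto reductase, had a log2 fold change of -1.18 with UA (unadjusted p = 0.00727), with 1.41 to 2.28 CPM in MI and 0.286 to 1.18 in MI + UA. Maoa and this value of Akr1b8 were named after they were seen.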

How the data were processed

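RNA of 12 rat hearts was sequenced strand-specifically as paired ends (the labels name polyA RNA, the protocol ribosomal depletion). The submitters' processing notes name STAR 2.6.1c, HTSeq, MultiQC 1.8 and build mRatBN7.2. The authors deposited raw read counts per Ensembl gene, without normalization. The 5 summary lines of unassigned reads were left out.

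Counts were analysed with edgeR 4.0.16 in R 4.3.3. A total of at least 10 counts per gene was required, TMM scaling was applied, and quasi-likelihood tests were run with the 3 groups in one fit. P-values were adjusted by Benjamini-Hochberg over 18182 genes, with a threshold of 0.05. CPM used TMM-scaled library sizes. Standard errors came from the log2 fold change and its F statistic. Levels were not compared between genes, since transcript lengths were not used. Alternatives were DESeq2 1.42.0, RLE size factors, TMM without mitochondrially encoded genes, filterByExpr, no filter beyond 1 count, only the 2 groups compared, and leaving out each rat. The fit was also run on simulated counts, whose outcome is not given and not used here.

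Named were members called in any comparison, a preset list of well-known members whatever their result, and the extreme members in MI + UA versus MI. Other genes were named as up to 2 rises and 2 falls per list. The rule for members uses no measured value, but it and the lists were chosen with earlier results of these data known. Marker lists for endothelial, smooth muscle, adipocyte, erythroid, lymphocyte, neutrophil and Schwann cells were also examined. In MI versus Sham 1 of 7 endothelial markers was lower, 4 of 8 smooth muscle and 1 of 4 Schwann markers were higher, and 0 of the others passed. A further MI + UA library that the study excluded was not analysed here. Of the 55 members, 54 matched RefSeq by symbol. Intervals and counts cover these libraries only, and reads are not independent molecules.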

Additional observations from a re-analysis of the deposited data

Results flagged for a closer look

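In each group of 4 rats, the highest and lowest values of the 42 named members, and the share of reads on all members, were compared with the other rats, members on the log2 CPM scale and the share on its linear scale. In 7 of 129 groups the gap to the nearest rat took more of the range than the 95% critical value of Dixon's test for 4 values allows, and chance flags about 1 in 20 groups. Txnip was 313.5 CPM in MI rat 36 and 622 to 675.1 in the other MI rats (gap 0.893 of the range in log2 CPM, the scale of all member gaps given here). Without that rat its log2 fold change was -0.05 in MI versus Sham. Txnrd1 was 26.97 CPM in MI rat 89 and 33.34 to 33.63 in the others (0.961), and Txnrd2 was 7.997 CPM in MI rat 57 and 11.65 to 12.5 in the others (0.842). Without these rats the log2 fold changes in MI versus Sham were -0.18 for Txnrd1 and -0.22 for Txnrd2.

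Prdx3 was highest in MI rat 57, at 72.29 CPM against 63.73 to 64.93 (0.851), and its log2 fold change in MI versus Sham was -0.57 without that rat (edgeR adjusted p = 0.000350). Gsta1 was highest in Sham rat 38, at 7.869 CPM against 5.34 to 5.394 (0.974), and without it the log2 fold change was 1.27 (edgeR adjusted p = 0.000819). Gpx1 was highest in MI + UA rat 64, at 152.7 CPM against 126.9 to 129.9 (0.876). The share of reads on all members was 0.2416% in MI + UA rat 58 and 0.1981% to 0.2034% in the other MI + UA rats (0.877 on the linear scale). The choice of scale changed which members stood out. On linear CPM, a scale added after the data had been seen, the Txnrd2 gap, 0.811, was under the critical value, and 2 others passed it, Gsto1 at 11.42 CPM in MI rat 61 (0.845) and Hmox2 at 36.57 CPM in MI + UA rat 66 (0.838). What set these rats apart was not tested.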

How the results depend on the processing

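No paired analysis was possible because the groups share no rat numbers, each animal having given 1 library. For each count of members in the comparisons with Sham, leaving out 1 rat moved it further than any change of tool, filter or scaling, and no scaling moved the median of all genes by over 0.016 in log2. With each rat left out, members higher in MI than in Sham numbered 2 to 5 (5 with all rats), members lower 5 to 12 (11), members higher in MI + UA than in Sham 1 to 4 (4) and members lower 1 to 7 (6, and 10 by DESeq2). Between MI + UA and MI, 0 members passed in any setting. Of all genes, 0 passed there, against 3 without a filter on low counts and 0 to 1 with each rat left out (1 without MI 36). Counts of all genes in the other comparisons stayed within 1.5 times.

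Log2 fold changes near 0 changed sign. In MI versus Sham, Nfe2l2 was -0.0023 with only the 2 groups compared. For MI + UA versus MI, Gpx1 was -0.00302 by filterByExpr and -0.00206 with only the 2 groups compared, and Mgst2 was 0.011 by DESeq2. With each rat left out, the ranges in MI versus Sham were Gss -0.27 to 0.021, Gsto1 -0.30 to 0.018, Mgst2 -0.39 to 0.12, Nfe2l2 -0.049 to 0.092 and Txn1 -0.12 to 0.14. In MI + UA versus Sham they were Gsr -0.094 to 0.0069, Hmox1 -0.60 to 0.028, Mgst2 -0.27 to 0.12 and Txn1 -0.20 to 0.061. For MI + UA versus MI they were Gclc -0.061 to 0.055, Gpx1 -0.064 to 0.074, Gpx7 -0.13 to 0.094, Gpx8 -0.036 to 0.22, Gsr -0.0087 to 0.11, Gsta1 -0.17 to 0.098, Gstm1 -0.071 to 0.095, Gstm6l -0.014 to 0.13, Gsto1 -0.21 to 0.064, Gstp1 -0.053 to 0.20, Gstt1 -0.21 to 0.099, Gstz1 -0.015 to 0.36, Keap1 -0.028 to 0.087, Mgst1 -0.034 to 0.18, Mgst2 -0.17 to 0.28, Prdx1 -0.014 to 0.091, Prdx2 -0.023 to 0.054, Sod3 -0.13 to 0.15, Txn1 -0.16 to 0.0011, Txn2 -0.061 to 0.32 and Txnrd1 -0.039 to 0.094. The cause of these changes was not tested. Depth limits the members with few counts most, since 1 read was worth 0.0563 to 0.168 CPM.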
